A study of Rattus norvegicus with 40 samples.

Results

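The enzymes that hydroxylate and crosslink collagen were followed in rat cerebral cortex after hypoxic preconditioning. The set held 9 genes grouped by function and chosen with earlier results of these data known. Its members were P4ha1, P4ha2 and P4hb of prolyl 4-hydroxylase, the lysyl hydroxylases Plod1, Plod2 and Plod3, and the lysyl oxidases Lox, Loxl1 and Loxl2. They were read through the probe sets that the array annotation assigns to 1 gene alone, 12 in number. Of the 14217 genes with such a probe set, 10304 passed a filter on low intensity, and 8 of the 9 enzymes were among them. Both Loxl2 probe sets lay below the filter and were left out of the reported tests.

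Prolyl 4-hydroxylase works in the endoplasmic reticulum as a tetramer of α subunits, which carry the active site, and β subunits, the protein disulfide isomerase encoded by P4hb. Its 4-hydroxyproline keeps the collagen triple helix stable at body temperature, and both it and the lysyl hydroxylases need molecular oxygen, 2-oxoglutarate, iron and ascorbate. Lysyl oxidases are secreted copper enzymes that also use oxygen and oxidise lysine and hydroxylysine side chains, from which the covalent crosslinks of collagen and elastin form. Several of these genes are known targets of hypoxia-inducible factor in cultured cells. In the brain, collagens are found mainly in the basement membrane of vessels and in the meninges.

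The study hybridised total RNA of cerebral cortex to 40 Affymetrix arrays. Hypoxic preconditioning accounts for 20 of them, and the other 20 are sham controls, which the labels call normoxic. The samples of each group are numbered 1 to 20 and come in 4 runs of numbers, 1 to 5, 6 to 10, 11 to 15 and 16 to 20, with 5 arrays of each group per run. The labels do not say what the runs are, and they give neither the oxygen level nor how long it lasted, nor the rats' strain and age. No label states that each sample is a separate animal, so the p-values reflect only how these samples vary, in part perhaps technically. For 19 of the 20 preconditioned arrays, deviations from the group mean correlated best with the same-numbered sham array of the run. The reported fits do not model this likeness. Neuronal markers were present (Snap25, a synaptic protein, at a mean intensity of 3645). In bulk cortex, fewer cells of a type and less RNA per cell cannot be told apart.

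The promoters of the hydroxylase genes that passed the test in a run are shown because the results turn on these genes. Each sequence runs 5′ to 3′ from 250 bases before to 30 bases after the transcription start, on the plus strand of GRCr8 (RefSeq), at chr20:27844796-27845075 for P4ha1, chr10:38743644-38743923 for P4ha2 and chr8:101964068-101964347 for Plod2. Capitals mark ACGTG or GCGTG on either strand, the core to which the factor binds. A match to 5 letters is a description and not a binding site.
P4ha1: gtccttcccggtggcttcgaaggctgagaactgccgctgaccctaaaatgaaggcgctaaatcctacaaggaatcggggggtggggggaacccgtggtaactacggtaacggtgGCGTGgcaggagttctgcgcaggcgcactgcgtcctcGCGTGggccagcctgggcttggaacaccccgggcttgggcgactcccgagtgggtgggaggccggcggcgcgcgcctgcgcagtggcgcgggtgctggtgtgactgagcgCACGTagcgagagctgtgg
P4ha2: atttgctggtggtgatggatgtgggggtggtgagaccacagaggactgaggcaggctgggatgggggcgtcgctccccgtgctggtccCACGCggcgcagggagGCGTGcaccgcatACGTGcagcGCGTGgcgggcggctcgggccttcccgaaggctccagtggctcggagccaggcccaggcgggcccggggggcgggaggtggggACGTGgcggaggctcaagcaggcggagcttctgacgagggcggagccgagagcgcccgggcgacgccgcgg
Plod2: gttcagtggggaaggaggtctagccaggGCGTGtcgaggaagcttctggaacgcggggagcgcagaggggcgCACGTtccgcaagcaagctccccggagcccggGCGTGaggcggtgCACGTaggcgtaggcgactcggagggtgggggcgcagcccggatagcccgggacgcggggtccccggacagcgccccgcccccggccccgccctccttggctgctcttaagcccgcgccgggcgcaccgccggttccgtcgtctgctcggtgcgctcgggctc

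P4ha1 held 3 matches, P4ha2 5 and Plod2 4. Among 33469 rat promoter windows of 280 bases, 39.7% held at least 1 match, 7.43% at least 3, 3.09% at least 4 and 1.32% at least 5. All 3 windows were rich in G and C (67.1%, 73.9% and 74.3%), and both motifs hold CG. Of the other enzymes with a sequence in the table, Plod3 held 2 matches, Plod1 held 1, and P4hb and Loxl1 held 0. Of genes outside the set that rose in both early runs, only Slc2a1, Kdm3a and Vegfa were looked up, and others such as Ldha and Ddit4 were not. Slc2a1 held 4 matches, Kdm3a 0 and 1 in its 2 windows, and Vegfa 0 in both of its windows. Lox and Loxl2 were not among the promoters.

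P4ha1 encodes the major α subunit of prolyl 4-hydroxylase. Among numbers 1 to 5, its probe set read 336.1, 321.9, 259.4, 299.8 and 243.8 on the preconditioned arrays and 131.6, 176.8, 146.6, 143.3 and 155.7 on the sham arrays. Every preconditioned array lay above every sham array. How many of all probe sets separate fully, in this or any other run, was not counted. The difference was 0.95 ± 0.12 (SE, n = 5 per group) on the log2 scale, a 1.93-fold rise (adjusted p = 6.09e-07, limma).

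Among numbers 6 to 10, P4ha1 read 193.4, 222.3, 258.8, 230.0 and 283.1 after preconditioning and 164.8, 150.8, 182.9, 131.8 and 145.2 after sham. The groups again did not overlap. The rise was 0.61 ± 0.12, or 1.53-fold (limma adjusted p = 0.00156). In the later runs the groups overlapped, with 130.3 to 178.7 against 120.6 to 158.3 in numbers 11 to 15 and 121.5 to 185.4 against 127.2 to 186.4 in numbers 16 to 20. Their log2 differences were 0.07 and -0.08 (limma adjusted p = 0.907 and 0.979).

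The P4ha1 difference itself differed between the 4 runs (limma adjusted p = 0.000231). P4ha1 was the only one of the 8 enzymes to pass this test, which 0.762% of the 18625 probe sets passed. Its sham arrays did not pass a test for change across runs (limma adjusted p = 0.603). Ordered by the size of the rise among 10304 genes, P4ha1 held rank 19 in numbers 1 to 5 and rank 38 in numbers 6 to 10.

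**Figure D1:**
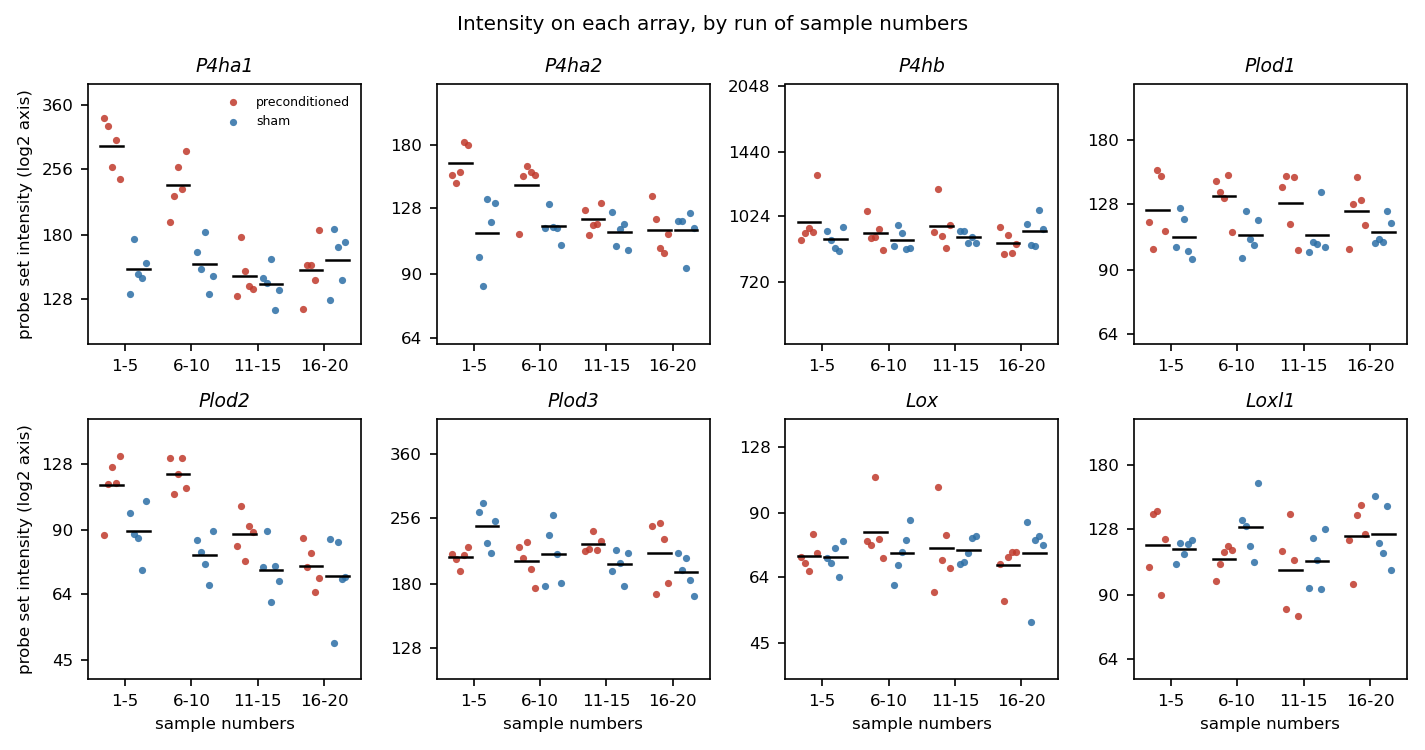
Intensity of the probe set that stands for each of the 8 enzymes (vertical axis, log2 scale) on each of the 40 arrays, by run of sample numbers (horizontal axis); red points are preconditioned arrays, blue points sham arrays, and bars geometric means of 5. P4ha1 separates the groups in numbers 1 to 5 and 6 to 10, P4ha2 in numbers 1 to 5 and Plod2 in numbers 6 to 10, while the lysyl oxidases overlap in all 4 runs. The share of all probe sets that separate in this way was not counted.

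P4ha2 encodes a second catalytic α subunit. In numbers 1 to 5 its probe set read 153.1, 146.8, 155.9, 182.1 and 179.9 on preconditioned arrays and 98.83, 84.46, 134.8, 119.1 and 132.0 on sham arrays. The groups did not overlap. The rise was 0.54 ± 0.11, or 1.45-fold (limma adjusted p = 0.00346). A fit to the 10 arrays of that run alone gave the same difference with adjusted p = 0.0574 (limma).

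In numbers 6 to 10, P4ha2 read 111.7, 152.2, 160.2, 155.8 and 153.1 after preconditioning and 115.5, 130.8, 115.7, 115.2 and 105.5 after sham. Preconditioned array 6, at 111.7, lay among the sham arrays, and the other 4 lay above all of them. The difference of 0.32 ± 0.11 did not pass (limma adjusted p = 0.111). Without array 6 it was 0.42 (limma adjusted p = 0.0454), and with each array centred on its median 0.40 (limma adjusted p = 0.0322). The differences in numbers 11 to 15 and 16 to 20 were 0.10 and 0.00 (limma adjusted p = 0.822 and 0.999).

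A second P4ha2 probe set was dim, with 25 of its 40 values below the floor of 16, and lay below the filter. In a fit without the filter its log2 differences were 0.10, 0.20, 0.09 and -0.13 from the first run to the last. Their unadjusted limma p-values were 0.327, 0.0484, 0.364 and 0.177. The test of whether the P4ha2 difference itself differed between runs was not passed (limma adjusted p = 0.205).

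P4hb, the β subunit that also serves as a general disulfide isomerase, read 903.7, 938.4, 960.6, 941.7 and 1279 on preconditioned arrays of numbers 1 to 5 and 945.7, 902.8, 863.1, 850.2 and 969.5 on sham arrays. The groups overlapped in every run. Its log2 differences were 0.14 ± 0.08, 0.05, 0.08 and -0.09 from the first run of numbers to the last (limma adjusted p = 0.36, 0.769, 0.774 and 0.952). So within prolyl 4-hydroxylase, both α subunits passed in numbers 1 to 5 and the β subunit did not; the difference between α and β subunits was not tested.

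Plod2 encodes the lysyl hydroxylase that acts on the telopeptides of fibrillar collagens. In numbers 6 to 10 its probe set read 131.8, 109.0, 121.1, 132.2 and 112.1 after preconditioning and 85.1, 79.85, 74.74, 67.04 and 89.15 after sham. The groups did not overlap. The rise was 0.62 ± 0.13, or 1.53-fold (limma adjusted p = 0.00489), and held rank 36 of 10304 genes.

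In numbers 1 to 5, Plod2 read 87.68, 114.7, 125.7, 115.7 and 133.6 after preconditioning and 98.34, 87.81, 85.86, 72.48 and 104.9 after sham. Preconditioned array 1 lay among the sham arrays and the other 4 lay above them. The difference of 0.36 ± 0.13 did not pass (limma adjusted p = 0.136). In numbers 11 to 15 and 16 to 20 the differences were 0.27 and 0.08 (limma adjusted p = 0.492 and 0.979). The 4 differences of Plod2 did not pass the test for a difference between runs (limma adjusted p = 0.375), so its call in numbers 6 to 10 is not shown to be particular to that run.

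Plod1, the lysyl hydroxylase of helical collagen sequences, passed in no single run, but its differences had 1 sign: 0.21, 0.30, 0.25 and 0.16, each with an SE of 0.12 (limma adjusted p = 0.394, 0.189, 0.504 and 0.94). With all 40 arrays in 1 comparison the rise was 0.23 ± 0.06, or 1.17-fold (limma adjusted p = 0.0439, n = 20 per group). The preconditioned arrays ran from 99.97 to 153.3 with a median of 131.4 and the sham arrays from 95.54 to 136.5 with a median of 104.5, so the groups overlapped. This call was near the threshold: leaving out single arrays gave adjusted p-values from 0.0232 to 0.0709, with 19 of 40 still called. The call was lost without numbers 1 to 5, 6 to 10 or 11 to 15 (limma adjusted p = 0.172, 0.437 and 0.0941).

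In that comparison of all arrays Plod1 was the only enzyme of the 8 called, and 0.891% of probe sets were called. P4ha1 (0.39 ± 0.11, adjusted p = 0.0568), Plod2 (0.33 ± 0.09, adjusted p = 0.0544) and P4ha2 (0.24 ± 0.07, adjusted p = 0.0644) had larger differences there, each just short of the limma threshold. With the run of numbers as a covariate, all 4 passed (limma adjusted p = 0.00718 for P4ha1, 0.00498 for Plod2, 0.0262 for P4ha2 and 0.027 for Plod1). The comparison shares its arrays with the run comparisons and adds no independent samples.

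Plod3, which also carries glycosyltransferase activity, went the other way in numbers 1 to 5. It read 211.1, 205.0, 192.5, 210.1 and 219.0 after preconditioning and from 212.5 to 277.7 after sham. Of the 5 preconditioned arrays, 4 lay below all sham arrays. The difference of -0.24 ± 0.10 did not pass (limma adjusted p = 0.202), and the later runs gave -0.05, 0.16 and 0.14. Plod3 was also the only enzyme called when the sham arrays alone were compared across runs (limma adjusted p = 0.0472), where 13.7% of probe sets were called. Its sham geometric means were 244.8, 210.4, 199.6 and 192.2 from the first run to the last, and the call was lost in 20 of 40 fits that left out 1 array and under several other settings.

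Lox, the founding lysyl oxidase, did not pass in any run. Its brighter probe set read 71.23, 68.9, 66.18, 80.5 and 72.69 after preconditioning and 71.07, 69.01, 74.87, 64.22 and 77.67 after sham in numbers 1 to 5, so the groups overlapped throughout. The log2 differences were 0.01, 0.16, 0.01 and -0.09, each with an SE of 0.13 (limma adjusted p = 0.978, 0.582, 0.986 and 0.978). The second Lox probe set gave 0.09, 0.03, 0.10 and 0.18 and passed in no run.

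Loxl1, which acts on elastic fibres, gave 0.03, -0.24, -0.07 and -0.02, each with an SE of 0.14 (limma adjusted p = 0.947, 0.381, 0.916 and 0.998). Its lower values in numbers 6 to 10, 97.1 to 116.8 after preconditioning against 107.3 to 164.2 after sham, overlapped. Loxl2 was near the floor on both probe sets, with mean intensities of 23.24 and 18.2 and 4 and 16 of 40 values under 16. On its brighter probe set the preconditioned arrays of numbers 1 to 5 ran from 25.56 to 33.13 and the sham arrays from 2.245 to 29.91. Preconditioned and sham arrays of numbers 6 to 10 ran from 10.3 to 31.45 and from 20.8 to 31.6, and the groups overlapped in the later runs too. The second Loxl2 probe set ran from 9.067 to 22.2 against 13.42 to 27.73 in numbers 1 to 5.

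**Figure D2:**
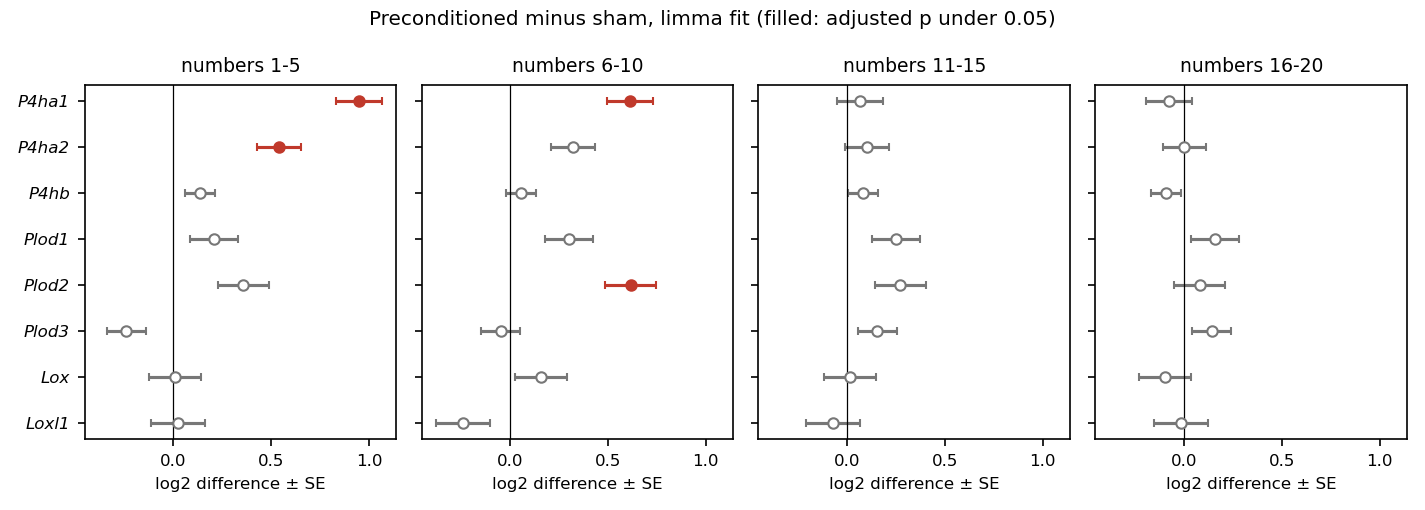
Log2 difference, preconditioned minus sham, with its standard error for each of the 8 enzymes (rows) in each run of sample numbers (panels), from the limma fit; filled red points have adjusted p under 0.05. The calls are P4ha1 (0.95) and P4ha2 (0.54) in numbers 1 to 5 and P4ha1 (0.61) and Plod2 (0.62) in numbers 6 to 10, and there are none in the other runs.

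Counted over the set, 2 of 8 enzymes were called in numbers 1 to 5, where 2.39% of all probe sets were called, and 2 of 8 in numbers 6 to 10, where 2.22% were. None of the 8 passed in numbers 11 to 15 (0.0698% of probe sets called by limma) or in numbers 16 to 20 (0% called). In numbers 16 to 20, 952 of 18625 probe sets had an unadjusted limma p under 0.05, about the share that chance alone gives. At an unadjusted limma p under 0.05 stood 4, 4, 2 and 0 of the 8 in the 4 runs, where 1837, 1881, 1009 and 512 of all 10304 genes did. Every call was a rise. The median log2 difference of the 8 was 0.17, 0.23, 0.09 and -0.01 in the 4 runs, against -0.03, -0.03, 0.01 and -0.01 over all 10304 genes. Since the members were chosen with earlier results of these data known, these counts and medians describe the set and do not test it. All 4 calls of the first 2 runs remained when any single array of their run was left out.

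Whether relatives differed from each other was tested on the log2 difference of both genes within each array, for 4 pairs in 4 runs, 16 tests. The ratio of Plod2 to Plod3 shifted the most, by 0.60 in numbers 1 to 5 (exact permutation p = 0.0159, adjusted p = 0.127) and 0.67 in numbers 6 to 10 (exact permutation p = 0.00794, the smallest that 5 against 5 can give, adjusted p = 0.127). In numbers 6 to 10 all 5 preconditioned arrays had a higher Plod2 to Plod3 ratio than any sham array. Plod2 over Plod1 shifted by 0.32 there (exact permutation p = 0.0238, adjusted p = 0.127). P4ha1 over P4ha2 shifted by 0.41 in numbers 1 to 5 and 0.29 in numbers 6 to 10 (exact permutation, adjusted p = 0.275 and 0.159), and Lox over Loxl1 by 0.40 in numbers 6 to 10 (exact permutation, adjusted p = 0.178). Of these two-sided exact permutation tests, 4 of 16 had an unadjusted p under 0.05 and 0 passed after adjustment. With 16 tests, a single pair whose groups separate fully can reach an adjusted p of only 0.127, so the tests neither show a difference between paralogues nor show that they respond alike.

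The 4 reference genes of the response to low oxygen rose in both early runs. Slc2a1, which carries glucose across the blood-brain barrier, rose by 1.46 and 0.98 on the log2 scale, and Vegfa, the vascular growth factor, by 1.42 and 0.83. Ddit4, an inhibitor of mTOR signalling, rose by 1.56 and 0.45, and Ldha, a lactate dehydrogenase subunit, by 0.60 and 0.53 (limma adjusted p at most 0.000492 for each). The P4ha1 differences of 0.95 and 0.61 lay below those of Slc2a1 and Vegfa and above those of Ldha. In numbers 11 to 15 and 16 to 20, 0 of the 4 passed limma after adjustment and 3 and 1 had an unadjusted p under 0.05.

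Among 16 measured oxygen- and 2-oxoglutarate-using enzymes outside collagen processing, 5 rose and 1 fell in numbers 1 to 5. Kdm3a, a histone demethylase, rose by 1.31 ± 0.09, Jmjd6 by 0.77 ± 0.11, and the prolyl hydroxylases of hypoxia-inducible factor Egln3 and Egln1 by 0.51 ± 0.10 and 0.37 ± 0.08. Kdm5b rose by 0.27 ± 0.07 and Tmlhe, of carnitine synthesis, fell by 0.48 ± 0.11. In numbers 6 to 10, 4 rose and 0 fell: Jmjd6 by 0.55, Kdm3a by 0.51, Kdm5b by 0.38 and Egln1 by 0.31. The difference of Kdm3a, Jmjd6, Egln3 and Egln1 differed between runs (limma adjusted p = 3.54e-10, 3.11e-05, 0.00497 and 0.0126), as that of P4ha1 did.

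**Figure D3:**
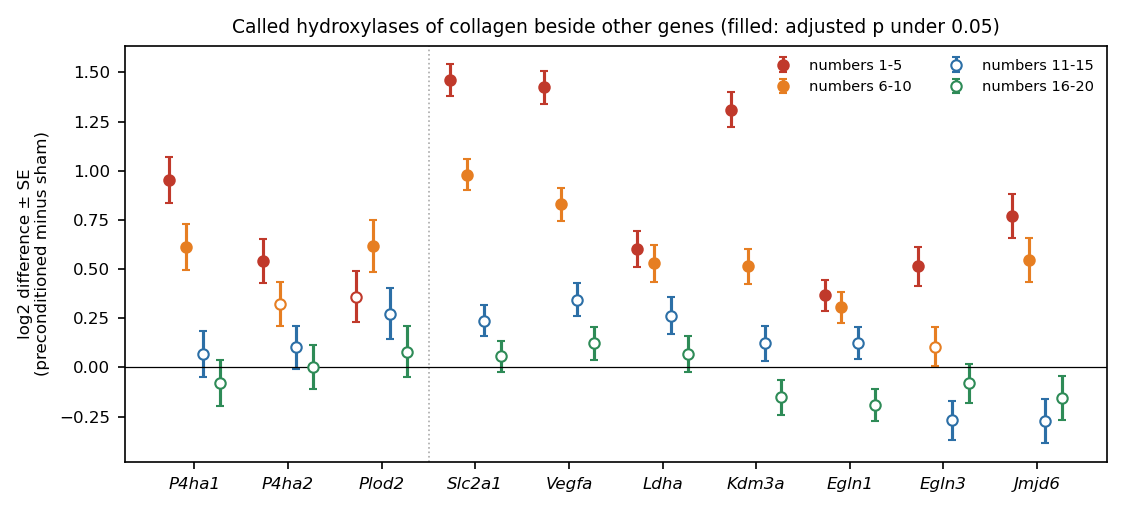
Log2 difference, preconditioned minus sham, with its standard error (vertical axis) for the 3 collagen hydroxylases called in a run, left of the dotted line, and for reference genes and other oxygen-using enzymes, right of it; colours are runs of sample numbers and filled points have adjusted p under 0.05. P4ha1 reaches 0.95 and 0.61, between Slc2a1 (1.46 and 0.98) and Ldha (0.60 and 0.53), and no gene shown passes in numbers 11 to 15 or 16 to 20. The reference gene Ddit4 is not shown.

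The rest of the collagen pathway was read beside all 10304 genes, of which 288 and 267 were called in numbers 1 to 5 and 6 to 10. With lists this small, 0 or 1 call cannot show a share below that of all genes. The list of other collagen-processing genes held 31 symbols, some of them older names of the same gene, and 18 were on the array. Of these, 15 were measured, and 0 passed limma in any of the run comparisons or over all arrays. At an unadjusted limma p under 0.05 stood 1, 2, 1 and 0 of them in the runs and 2 over all arrays. P4ha3, the third α subunit, differed by 0.03 and -0.09 in the early runs, and the prolyl 3-hydroxylase P3h1 by -0.15 and -0.07. Serpinh1, the collagen chaperone, differed by -0.29 and -0.20 (limma adjusted p = 0.0552 and 0.227). The medians of the 15 genes were -0.04 and -0.08 in these runs.

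Of 22 measured collagen and elastic fibre genes, Col4a1, a chain of basement membrane collagen, was the only one called in any run or over all arrays. It rose by 0.29 ± 0.08 in numbers 1 to 5 and 0.34 ± 0.08 in numbers 6 to 10 (limma adjusted p = 0.0307 and 0.0105), and by 0.29 ± 0.04 over all arrays (limma adjusted p = 0.000128). Its partner chain Col4a2 differed by 0.16 and 0.06, and the fibrillar chains Col1a1 and Col3a1 by -0.14 and -0.02 in numbers 1 to 5, none of them called.

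Of 14 measured folding enzymes of the endoplasmic reticulum, the compartment of P4hb, Ero1a, the oxidase that recharges disulfide isomerases, rose by 0.44 ± 0.10 in numbers 1 to 5 (limma adjusted p = 0.0133). Sdf2l1 fell by 0.55 ± 0.11 in numbers 6 to 10 (limma adjusted p = 0.00348). The other 12 were called in no run, but 8 of the 14 differed between sham runs, where 1537 of all 10304 genes did. Of 3 measured genes that act with ascorbate or iron, Slc40a1, the iron exporter ferroportin, fell by 0.94 ± 0.12 and 0.76 ± 0.12 in the early runs (limma adjusted p = 1.98e-06 and 0.000211).

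**Figure D4:**
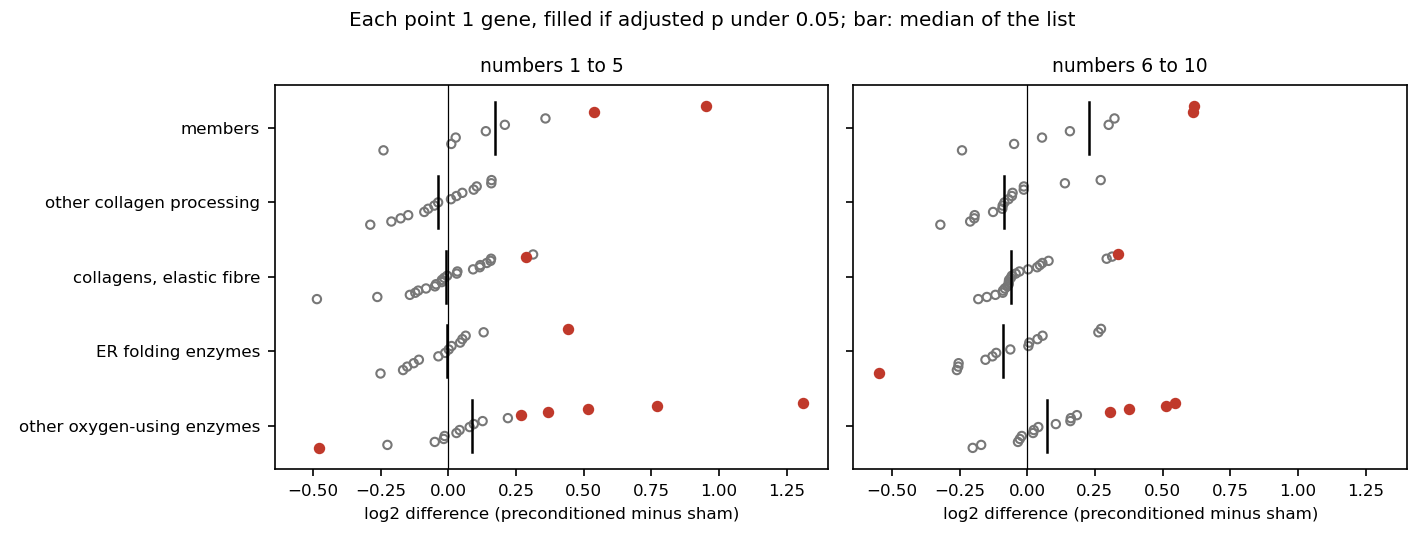
Log2 difference, preconditioned minus sham (horizontal axis), for every measured gene of 5 lists (rows) in numbers 1 to 5 and 6 to 10 (panels); filled points have adjusted p under 0.05 and vertical bars are list medians. The members' medians are 0.17 and 0.23, those of the other collagen-processing genes -0.04 and -0.08, and P4ha1 and Kdm3a lie farthest right in their lists in numbers 1 to 5.

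Markers of endothelial cells moved unevenly, with 3, 2, 1 and 0 of 5 called by limma in the 4 runs. Of all 10304 genes, 288, 267, 10 and 0 were called. Of 5 measured endothelial markers, Flt1 rose by 1.16, Pecam1 by 0.53 and Vwf by 0.49 in numbers 1 to 5, and Cldn5 and Tek differed by 0.11 and -0.32. The mean log2 level of the 5 ran from 6.89 to 7.16 on the preconditioned arrays and from 6.50 to 6.84 on the sham arrays, with no overlap. How many sets of 5 genes separate in this way was not counted. In numbers 6 to 10, Vwf rose by 0.54 and Tek fell by 0.51, and the mean level ran from 6.70 to 7.13 against 6.57 to 6.76. In numbers 11 to 15, where none of the enzymes passed, Vwf rose by 0.61 (limma adjusted p = 0.03) and the mean level ran from 6.81 to 7.25 against 6.68 to 6.87. Of the mural (5 measured) and meningeal fibroblast markers (8 measured), 0 were called by limma in any run. At an unadjusted limma p under 0.05 stood 0, 2, 0 and 2 mural markers in the 4 runs. For meningeal fibroblast markers the counts were 0, 2, 1 and 3, and for all 10304 genes 1837, 1881, 1009 and 512. Those markers of numbers 6 to 10 were all lower after preconditioning. Gfap, of astrocytes, rose by 1.02, and Mrc1, of perivascular macrophages, by 0.74 in numbers 6 to 10. Each was the only marker of its list called there, of 6 measured for astrocytes and 4 for microglia and macrophages. The median differences of these lists were -0.005 and -0.12. Gfap also rose by 1.07 in numbers 11 to 15, again as the only call of its list (median -0.02). The part of these markers in the rises of P4ha1, P4ha2 and Plod2 was not tested.

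Preconditioned arrays 5 and 6 had the lowest medians, 5.59 and 5.53 on the log2 scale, against 5.71 to 5.82 elsewhere. Without both, P4ha1 rose by 1.01 and 0.68 in the early runs and Plod2 by 0.59 in numbers 6 to 10 (limma adjusted p = 2.74e-07, 0.000577 and 0.0165). P4ha2 in numbers 1 to 5 rose by 0.50 (limma adjusted p = 0.00733). The ratio of 3′ to 5′ actin signal, a sign of RNA integrity, ran from 1.69 to 1.82 on preconditioned and 1.51 to 1.9 on sham arrays of numbers 1 to 5.

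Over the 40 arrays, the genes with profiles most like P4ha1 were Slc2a1 (r = 0.889), Kdm3a (0.876), Vegfa (0.866), Vldlr (0.853) and Plat (0.828). For Plod2 they were Anxa2 (r = 0.836), Angptl4 (0.792), Ndrg1 (0.766), Cav1 (0.762) and Lama4 (0.739). For Lox they were Tmem100 (r = 0.521), Usp48 (0.511), Pdlim1 (0.504), Tubb6 (0.491) and Anxa1 (0.484). These are descriptions, since all genes share the same arrays and group differences. Once the mean of each group and run was removed, the values for P4ha1 lay between -0.00305 (Plat) and 0.376 (Kdm3a), and those for Lox lay between 0.426 and 0.542.

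Inside groups and runs, the correlations between pairs of the enzymes ran from -0.335 to 0.525. P4ha1 and P4ha2 correlated at r = 0.636 over 40 arrays and at -0.151 once group and run means were removed, and P4ha1 and Plod2 at 0.566 and -0.335. The closest pair within groups was P4hb and Plod2 (r = 0.525), followed by Plod2 and Lox (0.407).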

How the data were processed

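Each array gave 1 linear intensity per probe set, as the authors deposited it; the software behind these values is not given in the sources used here. Trimmed mean intensities of 150.04 to 150.06 on all 40 arrays show a common scaling. Of 31099 probe sets, 57 controls were left out. Intensities under 16 were set to 16 before log2, no further normalization was applied, and the 18625 probe sets whose mean reached the 40th percentile (31.9) were tested. limma 3.58.1 in R 4.3.3 (lmFit, eBayes with a mean trend) was fitted over all 40 arrays with 8 means, group by run, and p-values were adjusted over all tested probe sets (Benjamini-Hochberg); called means adjusted p under 0.05. The comparison of all arrays fitted group alone. The scripts were tested on simulated data. A gene's brightest kept probe set by mean stands for it. Named are all 9 enzymes, at most 6 called genes per list, 4 reference genes and the 5 genes most like P4ha1, Plod2 and Lox; Col4a2, Col1a1, Col3a1, P4ha3, P3h1, Serpinh1, Cldn5 and Tek in numbers 1 to 5 are named beyond that rule, after their values were seen. The members and lists were chosen with earlier results of these data known. Of the 9 enzymes, 9 gene IDs matched the RefSeq gene table and 7 had a promoter sequence. The number of arrays limits precision. Of 780 pairs of arrays, 0 were identical.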

Additional observations from a re-analysis of the deposited data

Results flagged for a closer look

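In 7 of 64 groups of 5 arrays, 1 array stood apart from the other 4 by Dixon's gap ratio (critical value 0.710), where chance gives about 1 in 20. For P4ha2, preconditioned array 6 was low (111.7 against the next value of 152.2, gap ratio 0.858), and so was sham array 18 (93.2 against 115.3, ratio 0.732). For P4hb, preconditioned array 5 was high (1279 against 960.6, ratio 0.824). For Plod1, sham array 14 was high (136.5 against 104.5, ratio 0.829). For Lox, sham array 17 was low (50.49 against 75.92, ratio 0.766), preconditioned array 17 was low (56.27 against 68.62, ratio 0.751), and preconditioned array 8 was high (109.4 against 78.39, ratio 0.765). The preconditioning difference of P4ha1 differed between the runs of sample numbers (limma adjusted p = 0.000231).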

How the results depend on the processing

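The counts of enzymes called in numbers 6 to 10, 11 to 15 and 16 to 20 and in the test between runs stayed within 1.5 times the reported count under every alternative run. In numbers 1 to 5 the count fell from 2 to 1 when the 10 arrays of that run were fitted alone. Over all arrays the reported count of 1 was the least stable: it was 3 with quantile normalization, 4 with median centring, 4 with the run as a covariate, 4 without numbers 16 to 20, 2 with the filter at the 60th percentile, and 0 without a filter, without preconditioned arrays 5 and 6, without numbers 1 to 5 or without numbers 6 to 10. Without numbers 11 to 15 it stayed at 1, but the gene changed from Plod1 (adjusted p = 0.0941) to P4ha1 (0.0259). Leaving out 1 array at a time gave 0 to 4. The reported 1 across sham runs (Plod3) became 0 with quantile normalization, median centring, no filter or no mean trend, and 0 to 1 without single arrays. The causes were not tested beyond what each setting removes.

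Sample number as a replicate block gave a count over all arrays of 4 instead of 1 (limma adjusted p = 0.0167 for P4ha1, 0.0203 for P4ha2, 0.0126 for Plod2 and 0.012 for Plod1) and left the run counts at 2, 2, 0 and 0. No label says what a shared number means. Of 20 same-numbered pairs, 19 correlated best with their own number among the 5 sham arrays of the run, which points to a pairing in the data. By the rule used here the reported fits leave it out, because 15 and not all 20 had r above 0.1 (r from 0.0312 to 0.393). That rule does not show that the arrays are unpaired. The number of arrays, 5 per group and run, limits the size of difference that can be called, and Loxl2 lay too near the floor to measure.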
